A study of Mus musculus with 8 samples.

Results

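The genes studied belong to the response to transforming growth factor beta (TGF-beta) and to bone morphogenetic proteins (BMPs), and were followed in fat that lacks a receptor for lysophosphatidic acid. They were Ltbp1, Ltbp3, Smad3, Smad7, Skil, Pmepa1, Klf10, Tgfbi, Id1 and Id3, named as a list of 10 genes, and all of their 24 probe sets in the platform annotation were taken, out of 34945 probe sets with a single gene symbol. A probe set is a group of short array probes meant to read 1 transcript, though some can match others. The 24 belong to 10 of the 18193 genes measured. RNA came from epididymal white adipose tissue, a fat pad of the male mouse. There were 4 LPA4-KO mice, deficient in lysophosphatidic acid receptor 4 (genotype Lpar4 -/Y, since the gene is X-linked), and 4 wild-type (WT) mice. All were male littermates on a C57BL/6 background, 12 weeks old and on standard chow, with 1 array per mouse. The deleted stretch of Lpar4 is not given in the sources used here, nor do they limit the deficiency to a cell type.

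TGF-beta is secreted in a latent form that is held in the extracellular matrix by latent TGF-beta binding proteins, and once released it binds paired kinase receptors that phosphorylate Smad2 and Smad3. BMPs act through related receptors on Smad1, Smad5 and Smad9, and each of these Smads enters the nucleus with Smad4. The response includes its own brakes, among them Smad7, Skil and Pmepa1. In fat the pathways are known for control of progenitor differentiation and of matrix production.

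Of the 10 response genes, 2 fell in LPA4-KO fat, Klf10 and Smad7, and none rose. Of the 10, 9 varied between arrays, and all 9 had a lower mean in LPA4-KO than in WT mice, by 0.15 to 0.85 on the log2 scale. Among all varying genes 53.4% had a lower mean in LPA4-KO mice. Calls were made with limma at an adjusted p under 0.05 over all 18193 genes, of which 0.451% were called lower and 0.863% higher in LPA4-KO fat. The groups did not overlap in 6 of the 9 varying response genes, always with LPA4-KO lower, and the same was true of 14.5% of all varying genes. The median difference was -0.45 log2 over the 9 genes and -0.03 log2 over all 4029 varying genes. The median was -0.45 log2 too over the 18 varying probe sets, against -0.05 log2 over all varying probe sets. The response genes were chosen with earlier results of these data known. Their contrasts with all genes are therefore a description and not a test.

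**Figure D1:**
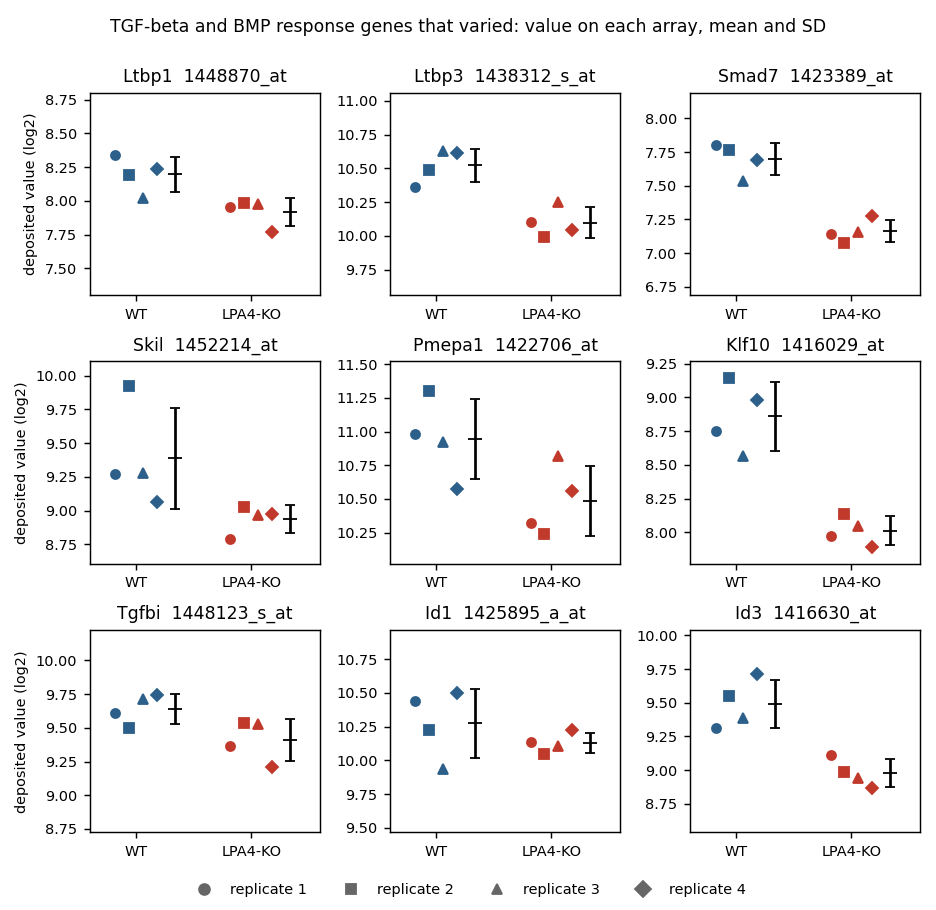
Deposited log2 value (vertical axis, the same span in each panel) of the 9 response genes that varied, at the probe set with the highest mean, on each of 4 WT and 4 LPA4-KO arrays. Marker shape gives the replicate number, which was not taken as a pairing of the groups, and the bar gives the mean and SD of the 4 arrays. The groups are apart in Ltbp1, Ltbp3, Smad7, Skil, Klf10 and Id3 and overlap in Pmepa1, Tgfbi and Id1.

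Some facts of the whole series bear on these values. Of the 18193 genes, 14164 (77.9%) moved by 0.1 log2 or less between the lowest and highest array, including genes near the top of the scale such as Adipoq, the gene of the adipocyte hormone adiponectin, at 13.83 log2 in each group. A flat value in this table was therefore not read as a measured lack of change. The targeted gene Lpar4 was lower in every LPA4-KO array at 1 of its 3 probe sets, 1452424_at, with 5.80 ± 0.05 against 6.52 ± 0.03 log2 (SD, n = 4; limma adjusted p = 0.0033, exact permutation p = 0.0286, the smallest possible). At 1434186_at and 1439665_at it differed by 0.68 and 0.48 log2 in the other direction without passing (limma adjusted p = 0.233 and 0.392), and the second of these was 0.29 log2 without LPA4-KO replicate 4. Array medians lay between 6.50 and 6.51 log2, no array stood apart by that measure, and no arrays held identical values. The interquartile range, a measure of spread, was 1.39 log2 on each LPA4-KO array and 1.40 to 1.43 log2 on the WT arrays. The groups were thus apart in spread, and its bearing on the response genes was not tested.

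When the varying genes were fitted alone 5 response genes fell in LPA4-KO fat, where 11.5% of all varying genes were called lower. Promoters are shown for Id3 and Ltbp3, which kept that call whichever array was left out and have an entry in the promoter table. RefSeq promoters of assembly GRCm38.p6 were at hand for 5 of the 10 genes, Ltbp1, Ltbp3, Smad3, Tgfbi and Id3. Klf10, Smad7, Skil, Pmepa1 and Id1 had no entry in that table. The 250 bases before the start of Id3 (chr4:136143572-136143821, plus strand, 62.8% G or C) and of Ltbp3 (chr19:5740650-5740899, plus strand, 47.2% G or C) are shown 5′ to 3′, in that order. Capitals mark CAGAC on either strand, the core of the CAGA box that Smad3 and Smad4 are known to bind.
Id3: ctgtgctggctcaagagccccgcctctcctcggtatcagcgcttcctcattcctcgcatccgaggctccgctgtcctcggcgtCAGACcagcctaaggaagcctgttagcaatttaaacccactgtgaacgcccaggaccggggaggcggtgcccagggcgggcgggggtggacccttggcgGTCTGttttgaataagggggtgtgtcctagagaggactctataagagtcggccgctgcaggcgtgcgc
Ltbp3: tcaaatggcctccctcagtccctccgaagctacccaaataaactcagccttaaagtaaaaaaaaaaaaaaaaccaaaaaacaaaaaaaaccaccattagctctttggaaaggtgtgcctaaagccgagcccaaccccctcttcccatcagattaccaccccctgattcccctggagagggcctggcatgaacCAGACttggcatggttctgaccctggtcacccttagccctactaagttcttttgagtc
The Id3 window held CAGAC at 2 places, 167 and 68 bases before the start at their far ends, and the Ltbp3 window at 1 place. This motif is common, since 42.2% of 32851 promoter windows of the same length held it. Tgfbi had 2 places with CAGAC and 1 with GGCGCC, a GC-rich element bound by Smads of the BMP branch, which 9.6% of windows held. The pair of Ltbp1 windows held 1 and 2 places with CAGAC, and the Smad3 window held none of the motifs searched. No window of these genes held GTCTAGAC, the palindromic Smad box, found in 0.2% of windows. All motifs were searched on both strands, none of the letters searched contains another, and a match is a description of the sequence and not a bound site.

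The latent TGF-beta binding proteins hold latent TGF-beta in the matrix, and the 2 genes of the list were lower in LPA4-KO mice without passing over all genes. Ltbp3 read 10.11, 9.99, 10.25 and 10.04 log2 in LPA4-KO replicates 1 to 4 and 10.36, 10.49, 10.63 and 10.61 in WT replicates 1 to 4 at 1438312_s_at, its probe set with the highest mean. All 4 LPA4-KO arrays were below all WT arrays, by at least 0.11 log2. The difference was -0.42 ± 0.08 log2 (SE, 1.34-fold lower), with an adjusted p of 0.0673 over all genes. Its other 3 probe sets also separated the groups, with differences of -0.47, -0.50 and -0.55 log2. The probe set 1418049_at passed when every probe set was fitted on its own (-0.47 ± 0.07, adjusted p = 0.0439), where 0.321% of probe sets were called lower. It lost the call whichever array was left out (adjusted p from 0.0506 to 0.115). Its LPA4-KO values were 8.96, 8.85, 8.93 and 8.77 and its WT values 9.20, 9.46, 9.39 and 9.33 log2. At 1437833_at and 1456189_x_at WT replicate 2 was well above the other WT arrays, at 7.17 and 7.11 log2, while at 1438312_s_at it lay between other WT arrays. Without WT replicate 2 the difference at 1437833_at was -0.35 log2 in place of -0.50.

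Ltbp1 could be followed at 1 of its 3 probe sets, 1448870_at, since the others spanned at most 0.00032 log2. It read 7.95, 7.98, 7.98 and 7.77 log2 in LPA4-KO mice and 8.34, 8.19, 8.02 and 8.24 in WT mice. The groups did not overlap, but the lowest WT array and the highest LPA4-KO array were 0.04 log2 apart. The difference of -0.28 ± 0.08 log2 (1.21-fold) did not pass (adjusted p = 0.155). With its 3 probe sets averaged, the nearly constant ones included, the difference was -0.09 log2.

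Smad3 transmits the TGF-beta signal to the nucleus, and its change could not be measured here. Each of its 3 probe sets spanned at most 0.00066 log2 over the 8 arrays, with means of 8.12 log2 in each group at 1454960_at.

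Smad7, the inhibitory Smad that recruits ubiquitin ligases to the TGF-beta receptors and is itself switched on by the signal, fell. At 1423389_at it read 7.14, 7.08, 7.16 and 7.27 log2 in LPA4-KO mice and 7.80, 7.76, 7.54 and 7.69 in WT mice. The highest LPA4-KO array was 0.26 log2 below the lowest WT array. Smad7 was 1.45-fold lower (-0.54 ± 0.07 log2, 95% interval -0.70 to -0.37, adjusted p = 0.0319). The other probe set, 1443771_x_at, gave 6.18, 6.29, 6.46 and 6.29 log2 against 6.96, 7.02, 6.93 and 6.98. Here the lowest WT array was 0.47 log2 above the highest LPA4-KO array. It was 1.59-fold lower (-0.66 ± 0.06 log2, adjusted p = 0.0255 over all probe sets), a call kept in 3 of 8 fits with 1 array left out, those lacking LPA4-KO replicate 1 or 3 or WT replicate 1. The suffix of this probe set, shared by Ltbp3 1456189_x_at and Tgfbi 1437463_x_at and 1456250_x_at, marks probes that can match other transcripts. At 1423389_at the call over all genes was kept in 1 of 8 such fits, without WT replicate 3, and the difference ran from -0.59 to -0.50 log2.

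Skil, which encodes the corepressor SnoN that binds Smads on DNA, differed by -0.45 ± 0.19 log2 and did not pass (adjusted p = 0.287, 95% interval -0.90 to 0.0044). At 1452214_at it read 8.79, 9.02, 8.97 and 8.98 log2 in LPA4-KO mice and 9.27, 9.93, 9.28 and 9.06 in WT mice. The groups stood 0.04 log2 apart, and WT replicate 2 was far above the other arrays. Without WT replicate 2 the difference was -0.27 log2. The second Skil probe set, 1422054_a_at, was nearly constant, and the average of both differed by -0.22 log2.

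Pmepa1, a membrane protein that keeps Smad2 and Smad3 from the receptor, also did not pass (-0.46 ± 0.19 log2, adjusted p = 0.286). At 1422706_at it read 10.32, 10.24, 10.82 and 10.56 log2 in LPA4-KO mice and 10.98, 11.30, 10.92 and 10.57 in WT mice. The groups overlapped, since LPA4-KO replicate 3 was above WT replicate 4. The probe set 1422705_at gave nearly the same difference (-0.45 ± 0.19). The third, 1452295_at, differed by -0.07 ± 0.21 log2, and this value turned to 0.02 when LPA4-KO replicate 2 was left out and to 0.07 when WT replicate 2 was. In all 3 probe sets LPA4-KO replicate 3 was the highest LPA4-KO array and WT replicate 2 the highest WT array, so they followed the same mice while giving unequal differences between the groups.

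Klf10, a zinc finger transcription factor gene induced early by TGF-beta, had the largest difference of the 10 genes. It read 7.97, 8.14, 8.05 and 7.89 log2 in LPA4-KO mice and 8.75, 9.15, 8.56 and 8.98 in WT mice at its only probe set, 1416029_at. The highest LPA4-KO array was 0.43 log2 below the lowest WT array, and the WT mice spread more (SD 0.26) than the LPA4-KO mice (SD 0.11). Klf10 was 1.80-fold lower (-0.85 ± 0.13 log2, 95% interval -1.17 to -0.53, adjusted p = 0.0463). This call stands close to the threshold. In the fit of all probe sets the adjusted p was 0.0532, and with any 1 array left out it lay between 0.0658 and 0.129 over all genes, with differences of -0.95 to -0.76 log2.

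Tgfbi, which encodes a secreted matrix protein induced by TGF-beta, differed little and alike at its 4 probe sets. At 1448123_s_at it read 9.37, 9.53, 9.53 and 9.21 log2 in LPA4-KO mice and 9.61, 9.50, 9.71 and 9.74 in WT mice. The groups overlapped at every probe set, with WT replicate 2 the lowest WT array at each. The 4 differences lay between -0.25 and -0.19 log2 (-0.34 to -0.12 with 1 array left out, the smallest without LPA4-KO replicate 4), and none passed (adjusted p = 0.262 for the gene, -0.23 ± 0.09 log2).

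Id1 and Id3 encode proteins that bind basic helix-loop-helix transcription factors and keep them from DNA, and both are known as direct targets of BMP signalling. Id3 read 9.11, 8.98, 8.94 and 8.87 log2 in LPA4-KO mice and 9.31, 9.55, 9.39 and 9.71 in WT mice. Its groups stood 0.20 log2 apart, and the gene was 1.43-fold lower without passing over all genes (-0.51 ± 0.10 log2, adjusted p = 0.0693). Id1 read 10.14, 10.05, 10.11 and 10.22 log2 in LPA4-KO mice and 10.44, 10.23, 9.93 and 10.50 in WT mice. WT replicate 3 was below all LPA4-KO arrays, and the difference was -0.15 ± 0.13 log2 (adjusted p = 0.628), with a 95% interval from -0.45 to 0.16. Leaving out 1 array moved it between -0.26 (without WT replicate 3) and -0.07 log2 (without WT replicate 4), and it was -0.09 without WT replicate 1. Whether Id1 and Id3 differ from each other was not tested.

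**Figure D2:**
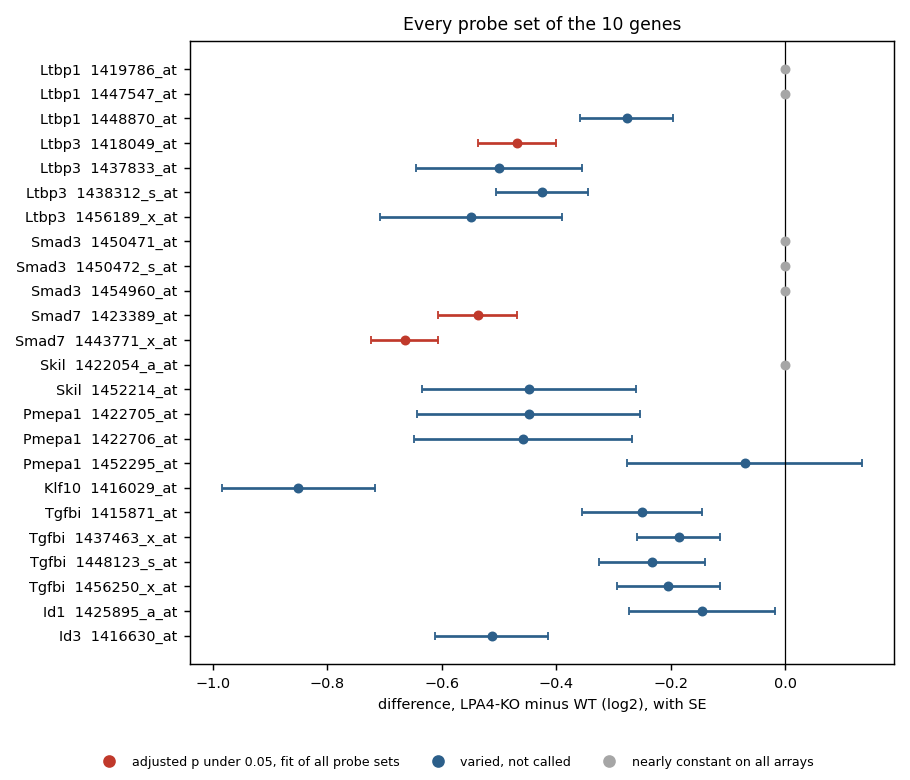
Difference between LPA4-KO and WT means (horizontal axis, log2, with SE) at each of the 24 probe sets of the 10 genes. The 3 red points, both Smad7 probe sets and Ltbp3 1418049_at, passed in the fit of all probe sets, blue points varied and did not pass, and the 6 grey points at 0 are probe sets that were nearly constant on all arrays.

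Over the 24 probe sets, 18 varied, all 18 had a lower mean in LPA4-KO mice, 10 separated the groups and 3 were called. Among all varying probe sets 15.4% separated the groups with LPA4-KO lower. The remaining 6, all 3 of Smad3, 2 of Ltbp1 and 1 of Skil, spanned at most 0.00084 log2. Probe sets of 1 gene read the same RNA and are not separate evidence.

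The many nearly constant genes share the adjustment over all genes. When the 4029 varying genes were fitted alone, 5 of the 9 response genes fell: Klf10 (adjusted p = 0.00636), Smad7 (adjusted p = 0.00717), Id3 (adjusted p = 0.0120), Ltbp3 (adjusted p = 0.0128) and Ltbp1 (adjusted p = 0.0489). In that fit 11.5% of genes were called lower, so the share of calls is higher there for all genes. That fit also estimates the variances anew. The SE of Smad7 was 0.083 log2 in place of 0.069, and that of Klf10 0.123 in place of 0.134. Klf10, Smad7, Id3 and Ltbp3 were called in each of the 8 fits of varying genes with 1 array left out, and Ltbp1 in 1 of 8. The limit of 0.1 log2 that defines a varying gene uses the same values as the test.

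The response genes did not rank the mice in 1 order. No LPA4-KO array was the highest of the 8 in any of the 9 varying genes. WT replicates 2 and 4 were each highest in 3 of them, WT replicate 1 in 2 and WT replicate 3 in 1. LPA4-KO replicate 4 was lowest in 4 and LPA4-KO replicate 2 in 3. The only WT array that was lowest in a gene was WT replicate 3, in Id1.

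Profiles over the 8 arrays were compared by the root mean square difference after each gene was centred on its own mean. Closest to Smad7 were Lims2 (0.077 log2), Spsb1 (0.089 log2) and Ampd3 (0.096 log2), which differed between the groups by -0.53 to -0.58 log2. Closest to Klf10 were 2900052L18Rik (0.158 log2), Mc2r (0.163 log2), a melanocortin receptor gene, and Sox7 (0.173 log2), a transcription factor gene, with differences of -0.57, -0.70 and -0.78 log2. Closest to Ltbp3, the uncalled response gene with the smallest p, were Itih5 (0.064 log2), Creb3l2 (0.066 log2) and Tspan6 (0.069 log2), at -0.40, -0.40 and -0.41 log2. The difference between the groups is part of each profile, so genes of like difference are close by construction.

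Beyond the 10 genes, 90 other genes of the pathway were measured in 8 lists, and 2 of the 90 were called, both lower: Fn1 and Hey1. Over all genes 0.451% were called lower and 0.863% higher. Of the 90, 44 varied, 34 with a lower and 10 with a higher mean in LPA4-KO mice, with a median of -0.23 log2. At an unadjusted p under 0.05, 21 of the 44 were lower and 0 higher, where among all 4029 varying genes 826 were lower and 779 higher. In the limma fit of varying genes alone 13 were called lower and 0 higher, where 11.5% of the varying genes were called lower and 9.78% higher. These lists too were chosen with earlier results of these data known, and all genes were read in the same 8 mice. The genes counted are therefore not separate evidence, and no test of the lists was made.

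Among ligands of the TGF-beta and activin branch, 2 of 7 measured genes varied. Inhbb, the activin beta B subunit, differed by -0.53 ± 0.10 log2 (adjusted p = 0.0645) with groups apart. Its LPA4-KO values were 8.08, 8.34, 8.33 and 8.05 log2 and its WT values 8.55, 8.74, 8.77 and 8.84. Tgfb3, which encodes a TGF-beta ligand, differed by -0.33 ± 0.13 log2 with overlap. Of 11 genes in the list of BMP ligands, 4 varied, all 4 with a lower mean, though the differences ran from -0.46 to only -0.02 log2. Bmp4 read 7.41, 7.59, 7.58 and 7.69 log2 in LPA4-KO and 7.95, 8.02, 8.24 and 7.92 in WT mice. The groups were apart, and the difference of -0.46 ± 0.09 log2 had an adjusted p of 0.0709. Bmp1, a protease that matures procollagen and cleaves BMP antagonists and not a BMP itself, differed by -0.36 ± 0.08 log2 (adjusted p = 0.0891). With all probe sets of a gene averaged, varying or not, the difference was -0.26 log2 for Inhbb and -0.12 log2 for Bmp1.

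Of 13 receptors 10 varied, with 6 lower and 4 higher means and a median of -0.10 log2. No receptor was called by limma over all genes, and 4 had an unadjusted p under 0.05, all lower. Acvr1b, an activin type I receptor, differed by -0.52 ± 0.13 log2 (adjusted p = 0.107) and Eng, the endoglin co-receptor of endothelial cells, by -0.25 ± 0.07 log2 (adjusted p = 0.124). Of 6 other Smads only Smad4 varied, by -0.13 ± 0.05 log2 (adjusted p = 0.238). Averaged over all their probe sets, varying or not, these differences were -0.26 log2 for Acvr1b, -0.13 for Eng and -0.04 for Smad4. Smad1, of the BMP branch, spanned 0.06 log2 in all and had a difference of -0.03 ± 0.01 log2.

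In the latency and activation list, Ltbp4 and Nrros, whose products hold latent TGF-beta, differed by -0.28 ± 0.08 and -0.25 ± 0.11 log2 (adjusted p = 0.162 and 0.285). Ltbp2, a relative of the Ltbp genes that was named after its values were seen, differed the other way (0.37 ± 0.22 log2, adjusted p = 0.444), by 0.23 log2 without WT replicate 1. Among 15 inhibitors and adaptors, 4 varied, 3 with a lower and 1 with a higher mean. Fst, the activin antagonist follistatin, had the smallest p (-0.57 ± 0.18 log2, adjusted p = 0.182). The corepressor gene Tgif1 was nearly constant.

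Of 19 other TGF-beta targets 16 varied, 12 with lower and 4 with higher means. Fn1, the matrix protein fibronectin, fell from 11.14 ± 0.16 to 10.26 ± 0.23 log2 (SD, n = 4; -0.88 ± 0.13, adjusted p = 0.0418). Snai2, a transcription factor gene, differed by -0.29 ± 0.06 log2 (adjusted p = 0.0794), or -0.14 with all its probe sets averaged, varying or not. The targets did not all share that sign: Ccn2, a matricellular protein gene named after its values were seen, differed by 0.50 ± 0.33 log2 (adjusted p = 0.506) with overlap, and by 0.22 log2 without WT replicate 2. Of 9 other BMP targets 2 varied. Hey1, a repressor gene switched on by Notch as well as BMP signals, fell. It read 6.93, 6.96, 7.03 and 6.89 log2 in LPA4-KO and 7.58, 7.55, 7.44 and 7.67 in WT mice. The groups were 0.41 log2 apart and the difference was -0.61 ± 0.05 log2 (1.53-fold, adjusted p = 0.0213). Atoh8, a transcription factor gene, was nearly constant. With 1 array left out, Hey1 kept its call over all genes in 3 of 8 fits, without WT replicate 1, 3 or 4, and Fn1 lost it whichever array was left out (adjusted p from 0.0717 to 0.115).

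**Figure D3:**
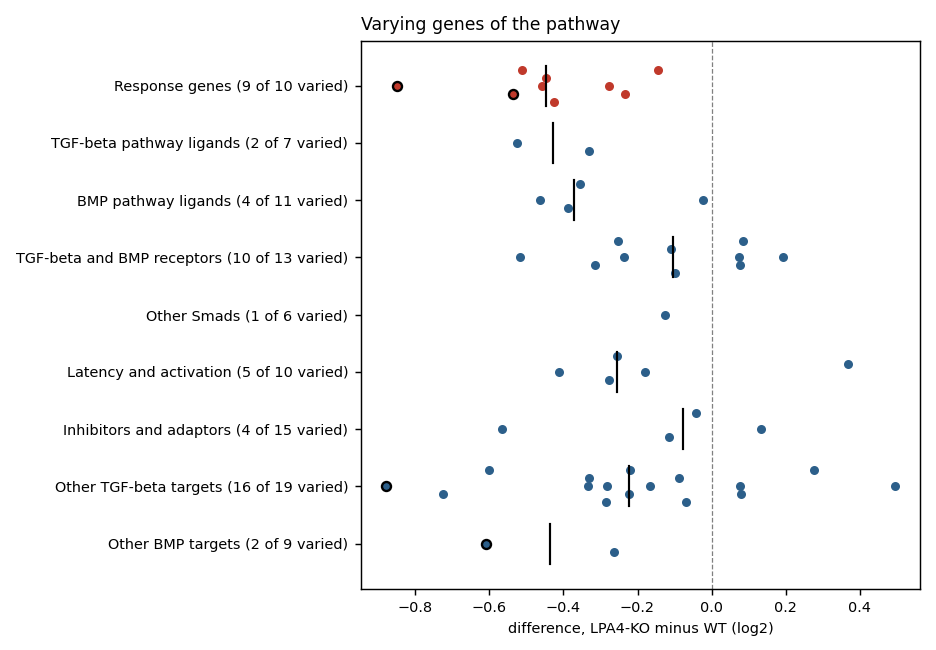
Difference between LPA4-KO and WT means (horizontal axis, log2) of the 9 varying response genes (red) and of the varying genes of 8 other lists of the pathway (blue), 1 point per gene, with the median of each list as a bar and called genes outlined in black. Klf10, Smad7, Fn1 and Hey1 are the outlined points. The receptors, latency and activation genes, inhibitors and adaptors, and other TGF-beta targets have points on either side of 0.

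Markers of several cell types also had lower means in LPA4-KO fat. All 9 measured markers of progenitors and fibroblasts had a lower mean, with 1 called, the dermatopontin gene Dpt. Their mean level ran from 9.49 to 9.86 log2 in LPA4-KO and from 9.99 to 10.29 log2 in WT mice, so the groups did not overlap (difference -0.40 log2, exact permutation p = 0.0286, 0.171 adjusted over 9 lists). The defining receptor gene Pdgfra differed by -0.66 ± 0.16 log2 (SE) without passing (limma adjusted p = 0.0993). It stood at 9.02 ± 0.28 log2 (SD, n = 4) in LPA4-KO mice. All 8 mesothelial markers had a lower mean (-0.57 log2, exact permutation p = 0.0857), as did all 7 varying macrophage markers (-0.26 log2, exact permutation p = 0.0571). Endothelial markers differed by -0.23 log2 with 3 of 4 varying genes lower, and smooth muscle and pericyte markers by -0.19 log2 with 3 of 6 lower. In that list Acta2, smooth muscle actin, fell (-1.31 ± 0.21 log2, limma adjusted p = 0.0498), and the other 5 varying markers together differed by 0.03 log2. With 1 array left out Acta2 kept its call in 0 of 8 fits (limma adjusted p from 0.0573 to 0.131) and Dpt in 3 of 8, without WT replicate 1, 2 or 3. The 6 varying adipocyte markers differed by 0.05 log2 (-0.01 without WT replicate 2). Of them 5 had a higher mean and 1, Lep, a lower one (-0.32 ± 0.36 log2, SE), and none was called. No marker of epididymal epithelium varied among 5 measured. Lymphocyte markers differed by -0.33 log2 over 2 varying genes, the 1 varying marker of brown fat by 0.28 log2 and the 1 of skeletal muscle by -0.72 log2. Without 1 array these became -0.11 (WT replicate 1), 0.11 (LPA4-KO replicate 4) and -0.41 log2 (LPA4-KO replicate 1). No list passed after adjustment with the exact permutation test, and 1 list, the progenitors and fibroblasts, had an unadjusted p under 0.05. A single separated list could not have passed the adjustment at this number of arrays. In whole tissue, fewer cells of a type and less RNA per cell cannot be told apart, and the part of these cell types in the values of the response genes was not tested.

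**Figure D4:**
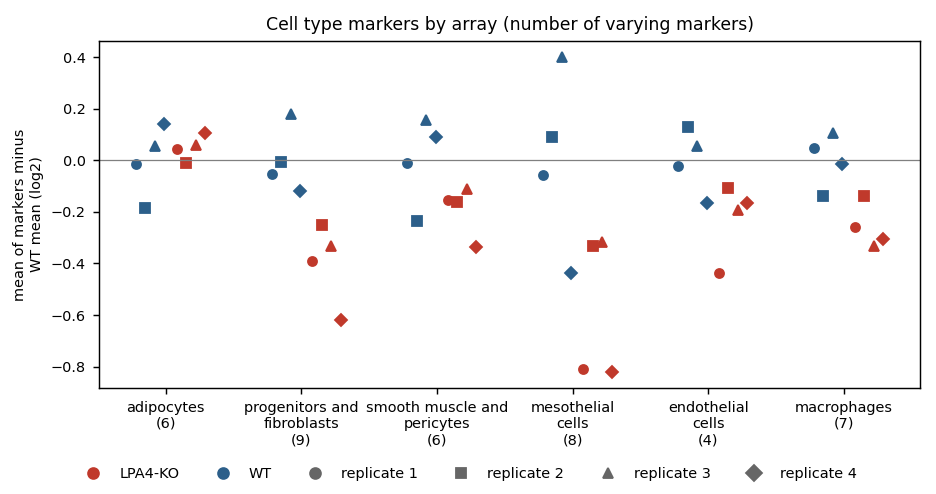
Mean log2 value of the varying markers of 6 cell types on each array, minus the mean of the 4 WT arrays (vertical axis). Blue points are WT and red points LPA4-KO arrays, marker shape gives the replicate number, and only the markers of progenitors and fibroblasts separate the groups, while the adipocyte markers of each group lie on either side of 0.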

How the data were processed

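Total RNA from epididymal fat of 8 mice was measured on Affymetrix 3′ expression arrays, 1 per mouse. The authors deposited 1 number per probe set and array, used here as log2 values, a scale inferred from their range (5.27 to 14.07). The submitters' processing notes name R 2.14.0. How signals were background-corrected, normalized and summarised, and the log base, are not given in the sources read. Gene names came from the platform's annotation, and 932 probe sets with several genes and 9160 without a gene were left out. All 10 response genes matched a RefSeq gene by Entrez number. The probe set of highest mean stood for its gene, and every probe set was also fitted on its own.

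Groups followed the labels. The test was limma's (version 3.58.1, R 4.3.3; lmFit and eBayes with trend, no block), with Benjamini-Hochberg adjustment over all genes or all probe sets and a threshold of 0.05. The steps were tested on simulated data. Marker means were compared with exact two-sided permutation tests over 70 arrangements, adjusted over the lists. Named were all response genes, every called pathway gene, the 2 of each pathway list with the smallest p, and the 3 closest profiles of each called and the first uncalled response gene. The response genes and lists were chosen with earlier results of these data known. An array has no depth as a count, and precision is limited by the number of arrays.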

Additional observations from a re-analysis of the deposited data

Results flagged for a closer look

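In 4 of 90 sets of 4 arrays of 1 group checked, 1 array lay far from the other 3 by Dixon's ratio of gap to range, where chance marks about 1 in 20. For Ltbp1 at 1448870_at, LPA4-KO replicate 4 stood at 7.77 log2 and the others between 7.95 and 7.98 (ratio 0.861). For Ltbp3 at 1437833_at, WT replicate 2 stood at 7.17 log2 and the others between 6.55 and 6.60 (ratio 0.918). For Tgfbi at 1437463_x_at, WT replicate 2 stood at 8.70 log2 and the others between 8.85 and 8.86 (ratio 0.913). For the activin receptor gene Acvr1b, LPA4-KO replicate 1 stood at 8.18 log2 and the others between 8.55 and 8.61 (ratio 0.872). None of these 4 was called over all genes.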

How the results depend on the processing

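All 9 varying response genes were lower in LPA4-KO mice under each of their 17 alternatives, 8 of which left out 1 array. The replicate block, the eBayes variants and the fits of fewer features leave each difference unchanged, so its sign there was fixed in advance. Averaging the probe sets of a gene, median centring, eBayes without trend or robust and array weights gave 2 or 3 called response genes. Averaging still moved several differences given above by over 1.5 times. For Ltbp1 and Skil the average takes in nearly constant probe sets, whose flat values were not read as a lack of change. The ratio of the main to the averaged difference lay close to a whole number for both. It did so too for Inhbb, Bmp1, Eng, Acvr1b, Smad4 and Snai2, whose other probe sets are not shown. These averages are therefore not read as smaller changes at other probe sets. Other settings moved the counts. For response genes, pathway genes and response probe sets in that order, the counts were 5, 44 and 12 after quantile normalization, 5, 13 and 8 in the varying features alone, and 4, 8 and 6 at an adjusted p under 0.10. Of these 44 pathway genes 29 were higher, and over all genes quantile normalization called 8799 genes higher and 637 lower in place of 157 and 82, while it moved the median of all genes by 0.0052 log2. Above the median level 4 response and 4 pathway genes were called. The share of all features called is not given here at 0.10 or above the median level. Nor is it given for the varying probe sets, the fits with 1 array left out or the replicate block. Counts under those settings are therefore not read as particular to the listed genes. Leaving out 1 array gave 0 to 1 for each of the 3 counts over all features, and, chosen after seeing the data, 4 to 5 response genes and 6 to 14 pathway genes among the varying genes (6 when LPA4-KO replicate 1 or WT replicate 3 was left out, and 8 for LPA4-KO replicates 3 and 4 and WT replicate 4). The labels do not state that the replicate numbers pair the mice. Correlations of deviations from group means over the varying genes were 0.018, 0.078, 0.24 and -0.18 for numbers 1 to 4. Numbers 2 and 3 were best matched by their own. Whether the numbers follow litters cannot be told from these values. With the replicate block limma called 0 response genes, 0 pathway genes and 0 response probe sets, Lpar4 kept -0.71 log2 with an adjusted p of 0.0847, and 4 response genes passed among the varying genes. Differences reversed for Pmepa1 1452295_at when LPA4-KO replicate 2 (0.025) or WT replicate 2 (0.066) was left out, in a range from -0.21 to 0.066, and for the adipocyte markers without WT replicate 2 (-0.010), and, chosen after seeing the data, for smooth muscle and pericyte markers with Acta2 left out (0.034). The causes were not tested. With 1 array left out, a single separated list could not have passed the adjustment of the exact test either. Signal over background was not tested, so no detection limit can be given.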
